A study of Mus musculus with 4 samples.

Results

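The genes described here are 10 mouse genes that mark blood cells, read in chromatin from embryonic limbs. The 6 erythroid members are Gata1, Klf1, Tal1, Nfe2, Hba-x and Hbb-bh1, and the 4 myeloid and stem cell members are Spi1, Runx1, Csf1r and Ptprc. They were chosen by name as lineage genes, though with earlier results of these data known, and are 10 of the 22367 protein-coding genes in the annotation. Limb buds hold blood in their vessels and may hold resident macrophages, so open chromatin at such genes was set out as a measure of both lineages.

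ATAC-seq marks accessible DNA with the Tn5 transposase, which cuts and tags open chromatin. The cells came from forelimbs and hindlimbs of E11.5 mouse embryos, from a cross labelled c57bl6.J X 129S6.sv, and were fixed after trypsin dissociation. Of the 4 libraries, 2 came from embryos labelled as mutants with a stop cassette insertion, in a study of the lncRNA Maenli and the limb gene En1, and 2 from wild-type embryos. The labels give neither zygosity nor the number of embryos per library, and nothing says that the libraries of a genotype came from separate embryos, so the spread between them may be technical. The peak names inside the wild-type lists carry 1 shared replicate number with sub-numbers, whereas those of the stop cassette lists carry separate numbers.

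Red cells of the mid-gestation mouse embryo come largely from the yolk sac, and these primitive cells still carry a nucleus while they circulate. They express embryonic globins, Hba-x of the α-globin cluster and Hbb-bh1 and Hbb-y of the β-globin cluster. Both clusters are driven by enhancers that lie upstream of the genes and that bind GATA1, TAL1, KLF1 and NFE2. Macrophages depend on SPI1, also called PU.1, and on the receptor CSF1R, while CD45, the product of Ptprc, marks white blood cells in general.

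Each library has 1 deposited list of peak summits in the mm9 build, 79083 and 107827 summits in stop cassette replicates 1 and 2 and 51701 and 68471 in wild-type replicates 1 and 2. The score of a summit, read as -log10 of a q-value, was turned into a percentile within its own list, from 0 for the weakest to 100 for the strongest. No read counts are in the lists, and sequencing depth is unknown. A longer list adds weak summits and so lifts the percentile of a strong one, and ranks in lists of unequal length show no change. Percentiles were therefore also taken from lists cut to a common length of 51701 summits by score, called equal length here. Values are given in the order stop cassette replicates 1 and 2, then wild-type replicates 1 and 2. A start summit is one within 1 kb of an annotated transcript start of the gene, and a locus is the gene body with 50 kb on either side.

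Erythroid genes were open at their starts in nearly every list, and the myeloid genes other than Runx1 in none. All 6 erythroid members had a start summit in both stop cassette lists, and 5 of 6 in each wild-type list, where Hbb-bh1 lacked one in replicate 1 and Klf1 in replicate 2. Of the 4 myeloid and stem cell members, Runx1 had a start summit in all 4 lists, and Spi1, Csf1r and Ptprc had none in any. Over all protein-coding genes, 61.5%, 64.5%, 59.1% and 61.6% had a start summit, 57.5% had one in all 4 lists and 34.5% in none. The erythroid count was above that background in every list, and the share of the myeloid and stem cell members with none was above that of all genes. Many of the wild-type erythroid summits were weak. Under the stricter score threshold, 1 score for all lists that carries differences in depth, the erythroid members with a start summit numbered 6, 5, 1 and 2 of 6, while 56.1%, 60.3%, 50.5% and 55.3% of all genes had one. In wild type Nfe2 was left in both lists and Tal1 in replicate 2, and Runx1 stayed in all 4 lists. In a mixed tissue, fewer cells of a type and less open chromatin per cell cannot be told apart.

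**Figure D1:**
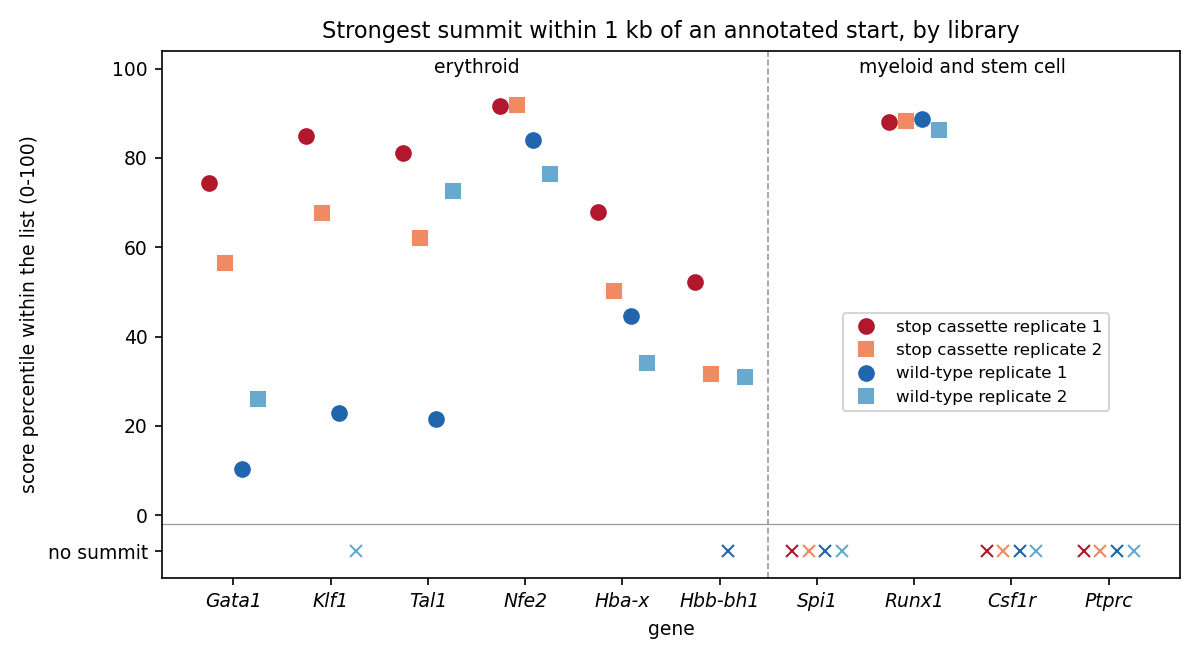
The score percentile of the strongest summit within 1 kb of a start (vertical axis, 0 to 100 within each list) is plotted for each of the 10 genes and each of the 4 libraries, with crosses at the bottom where a list holds no start summit. The erythroid genes spread widely between libraries, Runx1 sits between 86.3 and 88.7, and Spi1, Csf1r and Ptprc have crosses in all 4 lists.

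At both embryonic globin members the summits at their own starts ranked below the strongest ones upstream in every list. Hbb-bh1, which encodes an embryonic β-like globin (chr7:110990150-110991678, minus strand), had start percentiles of 52.2, 31.7, none and 30.9. At equal length it kept a start summit in stop cassette replicate 1 and in wild-type replicate 2, at 26.9 and 8.5. Other starts of the cluster ranked on either side of these values. Hbb-y, the other embryonic gene, had 86.0, 84.9, 52.7 and 58.0, and the adult gene Hbb-b1 had 92.2, 86.7, 72.8 and 20.7. For these neighbours both stop cassette lists lay above both wild-type lists as deposited, as also for Hbb-b2, at 77.4, 81.0, 4.5 and 50.7. At equal length Hbb-b1 had 88.1, 72.3, 72.8 and none, so its pairs overlapped. Hbb-y, at 78.5, 68.5, 52.7 and 44.4, and Hbb-b2, at 65.4, 60.4, 4.5 and 34.7, kept the order. Weak summits lay at the starts of Hbb-bh0, with 9.6 and 42.2 in the stop cassette lists and none in wild type, and of Hbb-bh2, with 2.5 in stop cassette replicate 1 alone.

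Upstream of Hbb-y, where the locus control region of the cluster lies, 5 intergenic regions with no start within 1 kb were held by all 4 lists. Counted from the start of Hbb-bh1 in the direction of transcription, so that negative distances are upstream, their highest summits lay at -16132, -18004, -22728, -27748 and -34131 bp. The farthest region had 98.0, 92.9, 66.6 and 20.7, the strongest summit of the locus in both stop cassette lists and the weakest of the 5 in wild-type replicate 2. The region at -27748 bp had 86.6, 87.0, 42.1 and 54.4. The region at -22728 bp had 90.4, 81.9, 55.6 and 81.0. In these the stop cassette lists were the higher pair, at -22728 bp by less than 1 percentile between the nearest libraries. The region at -18004 bp had 91.5, 86.5, 75.9 and 67.3, and that at -16132 bp had 84.8, 88.9, 75.7 and 56.0. The medians over the 5 regions were 90.4, 87.0, 66.6 and 56.0. At equal length the region at -34131 bp dropped out of wild-type replicate 2. Over the 4 regions still held by all lists the medians were then 82.4, 72.4, 65.7 and 49.2, and 2 of the 4 had both stop cassette values above both wild-type values.

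For 3 of these regions, those with the highest mean percentile, the mm9 plus strand around the highest summit is shown, taken over the 4 lists. Capitals mark matches, on either strand, to GATA sites (AGATAA or AGATAG or TGATAA or TGATAG), to TGANTCA, the core bound by NFE2 and AP-1 factors, to CCNCNCCC, bound by KLF factors, and to TGTGGT, the RUNX core.
Hbb-bh1 -16132 bp, chr7:111007735-111007885: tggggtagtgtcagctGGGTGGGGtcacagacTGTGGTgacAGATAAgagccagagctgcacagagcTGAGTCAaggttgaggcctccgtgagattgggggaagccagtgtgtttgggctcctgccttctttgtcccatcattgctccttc
Hbb-bh1 -18004 bp, chr7:111009607-111009757: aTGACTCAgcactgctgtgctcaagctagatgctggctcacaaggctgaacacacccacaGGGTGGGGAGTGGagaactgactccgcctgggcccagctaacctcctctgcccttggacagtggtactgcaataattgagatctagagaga
Hbb-bh1 -22728 bp, chr7:111014331-111014481: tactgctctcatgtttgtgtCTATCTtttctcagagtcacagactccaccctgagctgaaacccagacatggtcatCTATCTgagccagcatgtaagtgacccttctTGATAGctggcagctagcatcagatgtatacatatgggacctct
The nearest of the regions to the genes held 1 GATA match beside 1 TGANTCA, 1 CCNCNCCC and 1 TGTGGT match within its 151 bases. The region at -18004 bp held 1 TGANTCA match and 2 overlapping CCNCNCCC matches and no GATA match, while that at -22728 bp held 3 GATA matches alone.

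At the α-globin cluster the pattern was similar. Hba-x, which encodes the embryonic ζ-globin (chr11:32176400-32178116, plus strand), had start percentiles of 68.0, 50.1, 44.7 and 34.1. The pairs did not overlap, but at equal length the values were 51.0, none, 44.7 and 12.7 and they did. The main upstream enhancers of this cluster lie within the neighbouring gene Nprl3, a regulator of mTORC1 signalling. The region at -30597 bp from the Hba-x start, in an intron of Nprl3 with no start within 1 kb, had 85.6, 92.1, 68.6 and 80.3. The region at -25362 bp, also in an intron but within 1 kb of an internal start of Nprl3, had 91.4, 93.8, 24.3 and 75.3. The region at -20023 bp had 85.6, 87.9, 72.8 and 50.7. In these 3 regions the stop cassette lists were again the higher pair. Weaker summits lay at -11179 bp, in the stop cassette lists at 45.6 and 12.8 and in neither wild-type list, and at -7203 bp, at 78.4, 59.8, none and 29.0. The start of Nprl3 itself, at -8791 bp, ranked at 77.9, 90.5, 86.4 and 89.3 and as deposited did not separate the genotypes. At equal length it had 66.2, 80.2, 86.4 and 85.8, with the wild-type pair above.

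The sequence at the intronic region is shown for its 3 GATA matches, marked as above.
Hba-x -30597 bp, chr11:32145728-32145878: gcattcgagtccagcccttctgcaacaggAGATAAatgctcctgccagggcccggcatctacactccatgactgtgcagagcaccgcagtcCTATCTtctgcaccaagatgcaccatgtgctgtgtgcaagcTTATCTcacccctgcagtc
Downstream, Hbq1a and Hbq1b, the θ-like globin genes, had start percentiles of 67.2, 85.7, 16.0 and 36.9 and of 67.3, 84.3, 44.6 and 72.0. The adult genes Hba-a1 and Hba-a2 had no start summit in any list. They are near-identical copies, and the peak names record a mapping quality of 30, so reads from them may not have been kept. This was not tested.

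**Figure D2:**
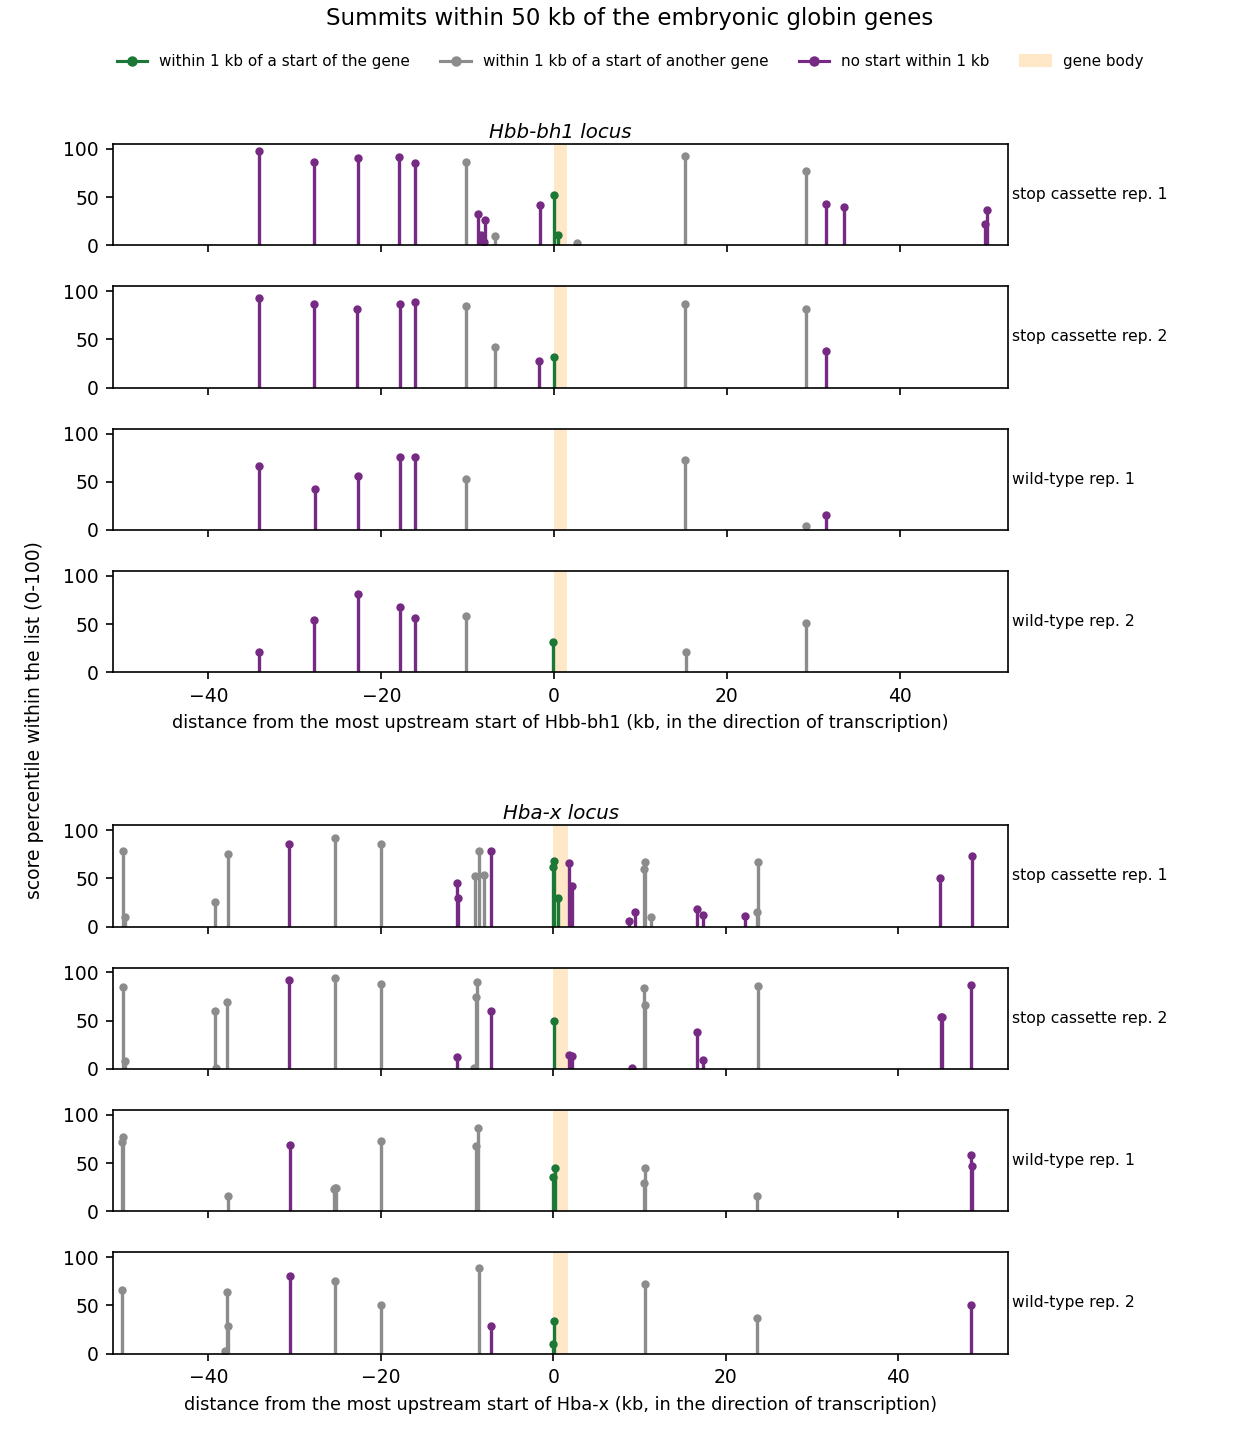
Each stem is 1 summit of the Hba-x and Hbb-bh1 loci in 1 library, placed by its distance in kb from the most upstream start of the gene (horizontal axis) and by its score percentile (vertical axis, 0 to 100), with the gene body shaded and colours for summits at the gene's own start, at starts of other genes and at no start. Strong summits stand upstream of both genes, and those at the genes' own starts reach 68.0 at most.

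Among the erythroid transcription factors, Nfe2 had the highest start percentile in every list. Nfe2 encodes a subunit of a leucine zipper factor that acts on globin enhancers (chr15:103078643-103088834, minus strand). Its start percentiles were 91.7, 92.0, 84.0 and 76.4, and at equal length 87.3, 83.2, 84.0 and 68.7. As deposited both stop cassette values were above both wild-type values, and at equal length the pairs overlapped. The highest summit lay at -63 bp. The 138 bases directly upstream of that start held 2 CCNCNCCC matches and no GATA match, and are shown as the promoter with the highest mean rank among the erythroid members.
Nfe2 upstream of the start, chr15:103088835-103088972: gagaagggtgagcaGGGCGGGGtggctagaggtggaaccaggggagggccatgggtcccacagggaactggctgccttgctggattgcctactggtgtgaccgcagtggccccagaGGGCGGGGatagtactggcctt
Internal starts of Nfe2 carried weaker summits in all 4 lists, at 3147 bp with 65.4, 57.7, 68.3 and 53.8 and at 6545 bp with 78.9, 68.5, 61.2 and 44.1. The strongest region of the locus was the start of its neighbour Copz1, a subunit of the coatomer coat of transport vesicles, at 97.1, 99.5, 97.0 and 98.8.

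Gata1 encodes the zinc finger factor without which red cells do not mature (chrX:7536386-7555197, minus strand). Its start percentiles were 74.5, 56.4, 10.4 and 26.0, higher in both stop cassette lists, and at equal length 60.9, 9.0, 10.4 and 2.0, where the pairs overlapped. The summit lay at an internal start, 10126 bp downstream of the most distal one. The 110 bases directly upstream of that internal start are shown because this is the start that was open in all 4 lists. They held 3 CCNCNCCC matches and no GATA match.
Gata1 upstream of the internal start, chrX:7545037-7545146: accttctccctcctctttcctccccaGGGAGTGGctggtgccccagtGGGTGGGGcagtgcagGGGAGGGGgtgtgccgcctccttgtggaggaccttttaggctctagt
Upstream of the internal start, a region at 6610 bp from the distal start had 85.0, 77.6, none and 0.3, above the start's own percentile in the stop cassette lists and below it in wild type. An erythroid enhancer of Gata1 is known upstream of its red cell promoter. A summit at -14857 bp had 83.9, 75.7, 16.0 and none. In both places each stop cassette list held a strong summit and the wild-type lists a weak one or none. The start of Hdac6, a neighbouring deacetylase gene, ranked at 95.4, 96.4, 94.9 and 97.2 in the same lists.

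Klf1 encodes the factor that activates adult globin and red cell membrane genes (chr8:87425827-87429194, plus strand). Its start percentiles were 84.8, 67.7, 22.8 and none, and at equal length 76.8, 32.7, 22.8 and none. With the 1 kb window Klf1 was the 1 erythroid member whose pairs stayed apart at equal length. A region at -642 bp was held by the stop cassette lists alone, at 84.8 and 67.7, and at equal length at 76.8 and 32.7. A region at -5 bp was likewise held by them alone, at 69.1 and 51.4, but at equal length by stop cassette replicate 1 alone, at 52.8. A region over a coding exon, with its highest summit at 1285 bp, was strong in every list at 90.2, 94.1, 90.6 and 85.3. At equal length it had 85.0, 87.7, 90.6 and 80.6, where the pairs overlapped. That summit fell just outside the 1 kb window, so the start values of Klf1 depend on the distance chosen. Klf1 had a start summit in all 4 lists within 2 kb and in 2 lists within 500 bp. The start of the next gene Gcdh, which breaks down lysine, ranked at 95.5, 98.2, 90.4 and 88.6.

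Tal1 encodes a bHLH factor of blood stem cells, red cells and endothelium (chr4:114729031-114744360, plus strand). Its start percentiles were 81.0, 62.1, 21.6 and 72.6, so wild-type replicate 2 lay between the stop cassette lists, and at equal length 71.0, 21.0, 21.6 and 63.8. At equal length the values within each genotype lay farther apart than the genotype means, and as deposited this held for wild type alone. The strongest Tal1 region with no start within 1 kb lay at 39470 bp, beyond the end of the gene, at 91.0, 93.5, 89.4 and 81.9. An erythroid enhancer of Tal1 is known downstream of the gene. The sequence is shown as the highest-ranked such region of the erythroid loci, and none of the motifs searched occurs in it.
Tal1 39470 bp, chr4:114768426-114768576: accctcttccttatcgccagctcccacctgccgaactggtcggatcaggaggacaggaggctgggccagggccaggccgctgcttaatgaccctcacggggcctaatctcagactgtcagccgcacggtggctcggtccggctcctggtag
A region over a coding exon of Tal1 at 6907 bp had 81.9, 75.3, 35.3 and 69.4. Regions upstream of the gene were weaker, with 58.0, 71.1, 31.7 and 50.7 at -18020 bp and 47.2, 68.6, 35.1 and 30.5 at -3663 bp.

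Of the myeloid and stem cell members, Runx1 was the 1 gene with an open start. Runx1 encodes a factor needed for blood stem cells to arise and is also used by other tissues (chr16:92601712-92826311, minus strand). Its start percentiles of 88.0, 88.3, 88.7 and 86.3 spanned less than 3 percentiles and overlapped between genotypes. The summit lay at the internal start, 128633 bp downstream of the distal one, and no start summit was called at the distal start, which blood stem cells are known to use. At equal length the values were 81.7, 75.6, 88.7 and 81.8, with the wild-type pair above by less than 1 percentile between the nearest libraries. The window at that summit is shown as the open start of this group, and held 1 CCNCNCCC match.
Runx1 internal start, chr16:92697603-92697753: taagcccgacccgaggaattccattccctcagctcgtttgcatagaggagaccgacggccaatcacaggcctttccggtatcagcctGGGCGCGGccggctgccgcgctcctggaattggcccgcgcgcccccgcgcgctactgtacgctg
In the long intron between the starts, a blood stem cell enhancer of Runx1 is known, and a summit at 24369 bp was present in stop cassette replicate 1 alone, at 78.2. Other Runx1 regions held by all 4 lists lay at 87603 bp, with 55.3, 68.3, 46.6 and 20.7, at 216651 bp, with 16.5, 68.3, 1.8 and 53.1, and past the gene at 260149 bp, with 75.7, 63.3, 58.1 and 68.6.

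Spi1 (annotated as Sfpi1, chr2:90922547-90955913, plus strand) had no start summit, but its locus was not empty. A region inside the gene at 19149 bp had 73.5, 82.6, 72.4 and 78.7, and one over a coding exon at 32924 bp had 86.1, 81.1, 62.0 and 81.2. A region at -21418 bp, in an intron of a neighbouring gene, had 83.3, 69.6, 21.2 and 10.2, and one at -3670 bp was held by the stop cassette lists alone, at 62.4 and 66.6. The neighbours' starts were strong in every list, Slc39a13, a zinc transporter, at 97.7, 96.5, 97.4 and 92.4 and Psmc3, a proteasome subunit, at 96.2, 95.4, 92.9 and 94.9.

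Csf1r (chr18:61265226-61291803, plus strand) had no summit inside the gene body in any list, although a known enhancer for macrophages lies in one of its introns. Its nearest summits lay upstream in an intron of the adjacent gene Pdgfrb, a receptor of mesenchymal cells, with 67.9 and 15.7 in the stop cassette lists at -39883 bp and none in the wild-type lists. At -37067 bp a summit was present in stop cassette replicate 2 at 44.6 and in wild-type replicate 2 at 20.7. The strongest region of the locus was the start of Hmgxb3, at 92.9, 91.9, 86.3 and 85.1. Ptprc (chr1:139959438-140071882, minus strand) had between 0 and 5 summits in its gene body, and no region of its locus was held by all 4 lists. The strongest summits of its locus had 21.6, 82.2, 31.7 and 57.1, and its highest region on average, at -30854 bp, had 7.5, 82.2, none and 57.1.

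**Figure D3:**
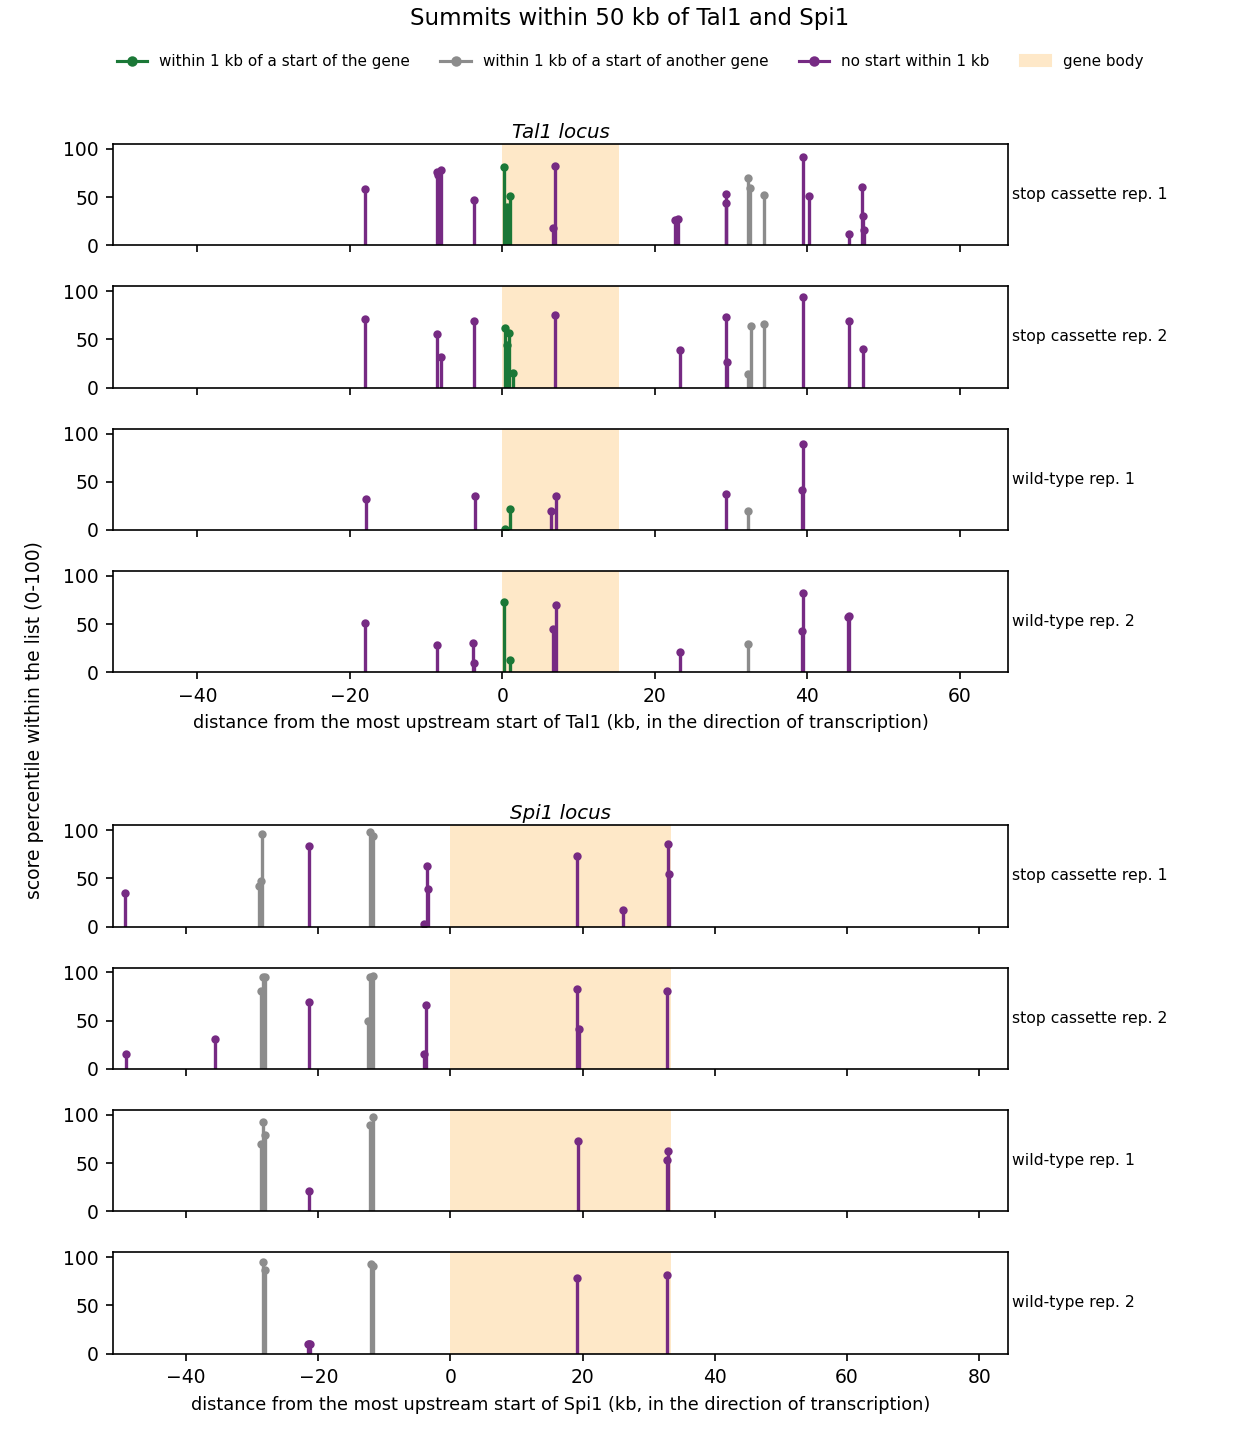
Stems show the summits of the Tal1 and Spi1 loci in each library by distance in kb from the most upstream start (horizontal axis) and score percentile (vertical axis, 0 to 100), with the gene body shaded. Tal1 has summits at its own start in all 4 lists, and Spi1 has none there, its strongest being at starts of other genes and inside the gene body.

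Over the 10 loci the lists held 172, 184, 86 and 102 summits, of which 56, 61, 41 and 40 lay at starts of other genes. As a share of its list this was 0.217% (95% Wilson interval 0.187% to 0.252%) in stop cassette replicate 1, 0.171% (0.148% to 0.197%) in replicate 2, 0.166% (0.135% to 0.205%) in wild-type replicate 1 and 0.149% (0.123% to 0.181%) in replicate 2. These intervals cover counting error only. The group means were 0.194% ± 0.0331 and 0.158% ± 0.0123 (SD, n = 2 each, exact permutation p = 0.333, two-sided), the smallest p that 2 against 2 libraries allow. Erythroid loci held 128, 120, 65 and 73 summits and myeloid loci 44, 64, 21 and 29. Stop cassette replicate 1 held the largest erythroid share, 0.162%, against 0.111%, 0.126% and 0.107% in the other lists, while the myeloid shares were 0.0556%, 0.0594%, 0.0406% and 0.0424%. Without stop cassette replicate 1 the difference in the share of all member loci was 0.0130 percentage points, and without stop cassette replicate 2 it was 0.0598, against 0.0364 with both.

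Summits of all lists, extended by 250 bp on each side and merged, gave 136 regions in the 10 loci, of which 52 were held by all 4 lists, 27 by the stop cassette lists alone and 0 by the wild-type lists alone. Over all regions these shares were 32.0%, 10% and 0.314%. Of the 94 regions of the erythroid loci, 42, or 44.7%, were in all 4 lists, and of the 42 of the myeloid loci 10, or 23.8%. Starts of other genes made up 22 of those 42 erythroid regions and 3 of those 10 myeloid regions. With no start within 1 kb, 13 of 51 erythroid regions, or 25.5%, were in all 4 lists, and 6 of 37 myeloid regions, or 16.2%. The regions of the stop cassette lists alone numbered 7 at Hba-x, 3 each at Klf1 and Runx1 and 2 at each of the other loci, and their percentiles ran from 1.1 to 84.8. Of the 88 regions with no start within 1 kb, 19 were held by all 4 lists, against 19.0% of all regions of that kind, and 20 by the stop cassette lists alone, against 11.7%. The wild-type lists alone held 0, against 0.357%. At equal length 5 of 59 such regions were held by the stop cassette lists alone, where the background was 6.68%, and 0 by the wild-type lists alone, where it was 2.75%.

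As deposited, erythroid regions away from starts ranked higher in the stop cassette lists than in the wild-type lists. Of the 42 erythroid regions held by all lists, at starts or away from them, 22 lay at starts of other genes and 7 at the members' own starts. In 31 of these 42, both stop cassette percentiles were above both wild-type ones, against 38.9% of all regions in 4 lists. At equal length it was 14 of 38, with 3 in the opposite order, against 20.7% and 18.9% of all regions. For the 13 erythroid regions with no start within 1 kb the stop cassette pair was above in 13 as deposited, against 36.4% of the regions of that kind. Their medians were 84.8, 86.9, 58.1 and 56.0, where the medians over all 10627 regions of that kind were 62.0, 79.7, 50.4 and 64.6. The erythroid median was thus above that of all such regions in both stop cassette lists and in wild-type replicate 1, and below it in wild-type replicate 2. As deposited, this set beside all regions therefore did not divide by genotype. At equal length the stop cassette pair was above in 5 of 11 regions, against 21.3%. The medians were then 76.7, 72.7, 58.1 and 56.7 against 55.3, 65.8, 58.1 and 61.4. At that length the erythroid median was above that of all such regions in both stop cassette lists and in neither wild-type list. Over the myeloid loci with regions at starts included, it was 4 of 10 as deposited, and at equal length 1 of 8, where 2 had the wild-type pair above. For the myeloid regions with no start within 1 kb it was 2 of 6 as deposited. At equal length it was 1 of 4, where 1 had the wild-type pair above.

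Sequence matches were counted under these 13 regions. Within 151 bases at the highest summit, 6 of the 13, or 46.2%, held a GATA match, against 18.7% of all regions with no start held by all 4 lists. CCNCNCCC occurred in 7 against 27.9%, TGANTCA in 2 against 5.42% and TGTGGT in 2 against 11.3%. Over all 51 erythroid regions with no start, in however many lists, GATA matches occurred in 27.5% and CCNCNCCC also in 27.5%, against 16.7% and 28.6% of all regions. Those shares of all regions include regions at starts, so the sets are unlike, and the share without starts was not taken. Among all regions held by all 4 lists, GATA matches occurred in 11.8% with starts included and 18.7% without, and CCNCNCCC in 43.2% and 27.9%. GAGGAAGT, a core bound by SPI1, occurred in 0 of the 13 regions, against 1.11% of all regions with no start held by all 4 lists. For so rare a match, 0 in so few regions carries no information. Of the 6 myeloid regions with no start held by all 4 lists, 2 held a GATA match and 0 held GAGGAAGT. All motifs were searched on both strands, and a match is a string of letters and not a measured binding site. The 13 regions had a median GC content of 56.3%, against 53.6%, and 5 of them share the β-globin locus.

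The start percentiles of the members were compared between genotypes in the same way. As deposited, both stop cassette values were above both wild-type values for 5 of 6 erythroid members, the exception being Tal1, and for 0 of 4 myeloid members. Spi1, Csf1r and Ptprc had no start summit and could not be called in either order, so only Runx1 could. The same held for 26.0% of all protein-coding genes, and the opposite order for 2.62%. These shares include the 34.5% of genes with no start summit in any list, which likewise cannot be called. At equal length and with the 1 kb window, the stop cassette pair was above for 1 erythroid member, Klf1, against 12% of genes. The opposite order held for Runx1, against 12.2%. The number of members with a start summit was 7 in each stop cassette list and 6 in each wild-type list, a difference of 1 (exact permutation p = 0.333, two-sided), and at equal length the counts were 7, 5, 6 and 6, a difference of 0. At that length 57.7%, 59.8%, 59.1% and 59.4% of all genes had a start summit. The erythroid share minus the myeloid share with a start summit was 75.0 percentage points in the stop cassette lists and 58.3 in the wild-type lists (n = 2 each, exact permutation p = 0.333), a difference of 16.7 points that was 0 at equal length and 66.7 under the stricter score threshold, where the lists had 75.0, 58.3, -8.33 and 8.33. The best percentile of each locus, averaged over erythroid and then over myeloid members, differed between the lineages by 12.8 ± 9.70 in the stop cassette lists and 11.3 ± 2.37 in the wild-type lists (SD, n = 2 each, exact permutation p = 1). That difference of 1.52 was less than the spread between libraries, and without stop cassette replicate 1 it was -5.34. At several loci of both lineages the best summit lay at the start of another gene, such as Hdac6 at Gata1 and Hmgxb3 at Csf1r. Without summits at starts of other genes the lineages differed by 20.1 in the stop cassette lists and 16.5 in the wild-type lists, a difference of 3.62.

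Longer lists of marker genes differed between the lineages as well. The erythroid and myeloid lists include the members, so their counts are not independent of those above. Of 35 erythroid genes, 33, 32, 26 and 28 had a start summit, 24 had one in all 4 lists, and the 2 with none were Hba-a1 and Hba-a2. Of 35 myeloid genes, 9, 9, 8 and 9 had one, and 26 had none in any list. Those ranked highest in the erythroid list were Tfrc, the transferrin receptor, with a mean percentile of 95.1, Zfpm1, a GATA1 partner, with 92.7, Fech, which closes heme synthesis, with 87.6, and Nfe2 with 86.0. Several of these genes are used by other cells too. In the myeloid list they were Lcp1, a leukocyte actin-bundling protein, with 92.5, Runx1 with 87.8, Coro1a, an actin regulator, with 81.5 and Ikzf1, a lymphoid and myeloid factor, with 76.8. Itga2b and Itgb3, the chains of the platelet fibrinogen receptor, had 90.6 and 88.3, and were the 2 of 8 megakaryocyte genes with a start summit in all 4 lists. Of 13 lymphoid genes, 2 had one in all 4 lists, Pax5 at 87.6 and Lck at 82.4. Endothelial genes had one in 5, 7, 5 and 5 of 12, liver genes in 0, 1, 1 and 0 of 11, and limb mesenchyme genes in 15, 15, 12 and 15 of 16.

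**Figure D4:**
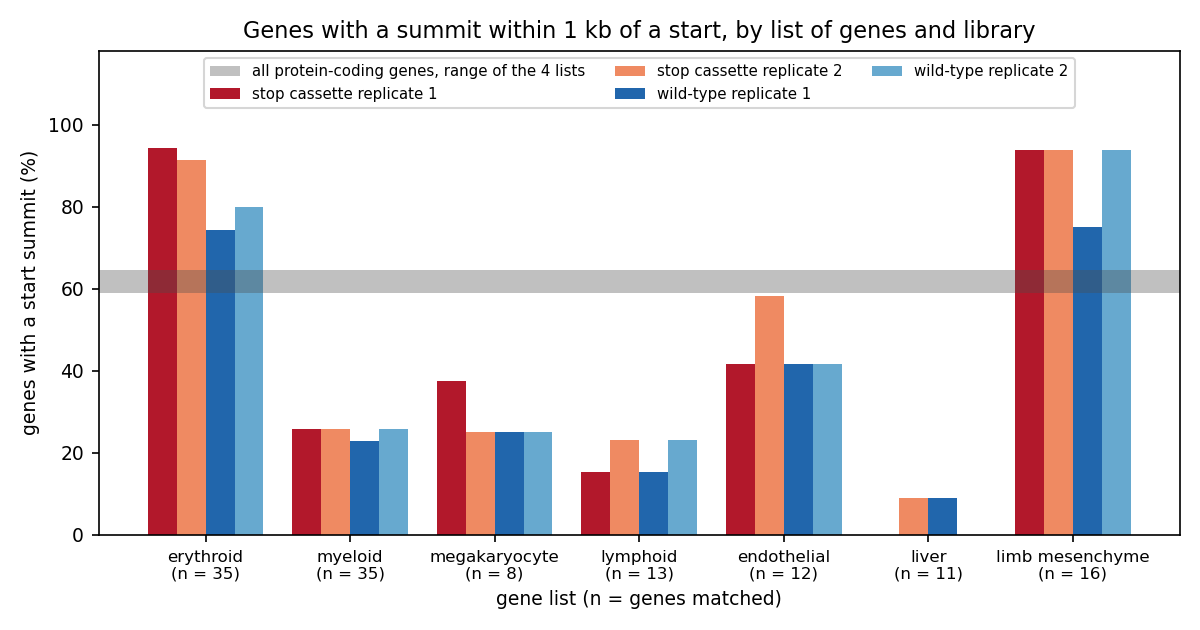
Bars give the percent of the genes of each list with a summit within 1 kb of a start (vertical axis, from 0), for each library, with the number of genes matched under each list and the range over all protein-coding genes, 59.1% to 64.5%, as a grey band. The erythroid and limb mesenchyme bars stand above the band and the myeloid, megakaryocyte, lymphoid, endothelial and liver bars below it.

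In the erythroid list, both stop cassette values were above both wild-type values for 27 of 35 genes, and the opposite order held for 0, against 26.0% and 2.62% of all genes. All genes include the 34.5% with no start summit in any list, 37.3% at equal length, which cannot be called in either order. Of the erythroid list 2 genes were of that kind, and 3 at equal length. The shares over all genes are therefore lower than those among genes with a start summit. Rhd, a blood group protein, and Alas2, the red cell enzyme that begins heme synthesis, had start summits in the stop cassette lists alone, Rhd at 70.5 and 50.6 and Alas2 at 57.1 and 22.7, an occurrence found for 1.03% of all genes. At equal length neither gene kept a start summit in stop cassette replicate 2, and in replicate 1 they had 54.9 and 34.4. At equal length 11 erythroid genes had the stop cassette pair above and 2 the wild-type pair, against 12% and 12.2%, and the counts with a start summit were 32, 27, 26 and 26. The libraries of a genotype differed in this count. With replicate 2 left out, replicate 1 was above both wild-type lists for 26 of 35 genes at equal length and below both for 4, against 20.4% and 23.5% of all genes. With replicate 1 left out, replicate 2 was above both for 11 and below both for 7, against 22.1% and 18.6%. With wild-type replicate 1 left out, both stop cassette values were above the other wild-type list for 18 genes, against 20.3%, and with replicate 2 left out for 12, against 20.9%. The myeloid list had 3 genes with the stop cassette pair above as deposited, and 2 at equal length, where 4 had the wild-type pair above. In that list 26 of 35 genes had no start summit in any list and could not be called in either order. The limb mesenchyme list had 0 above as deposited and 0 at equal length, where 3 had the wild-type pair above. The endothelial list had 1 gene in each order as deposited, and at equal length 0 with the stop cassette pair above and 4 of 12 with the wild-type pair above. The share of blood cells in each library was not measured by other means, and its part in these ranks was not tested.

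**Figure D5:**
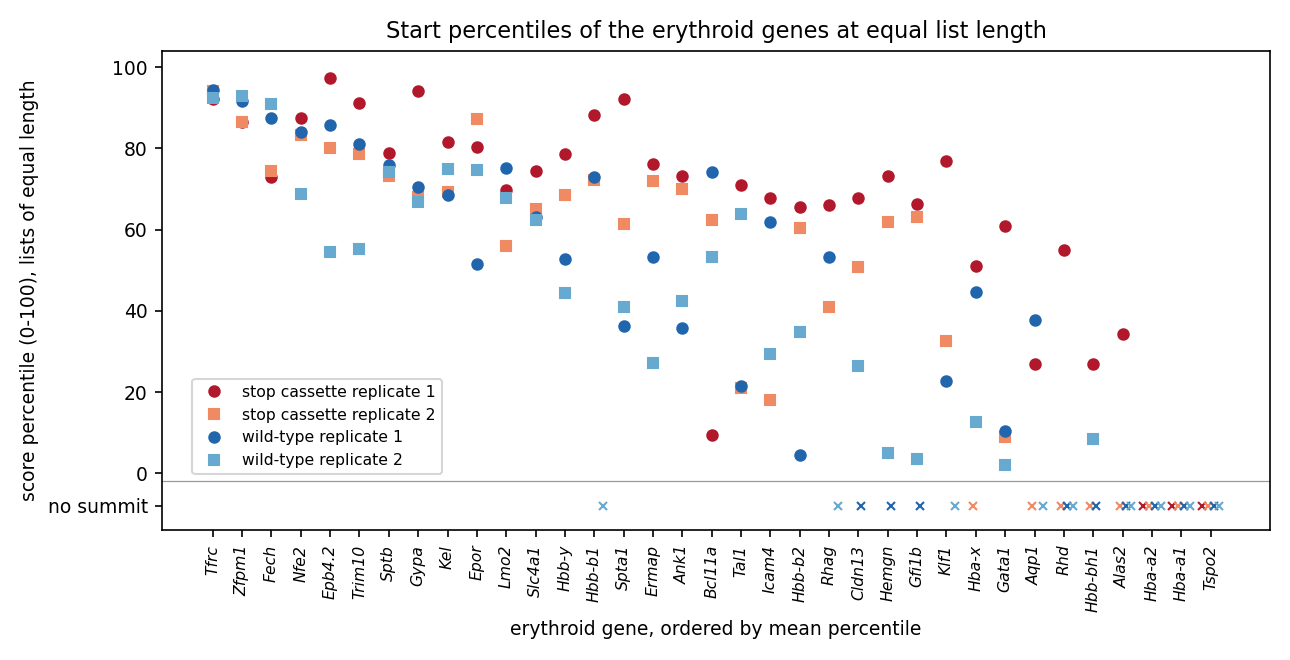
Points give the start percentile at equal list length (vertical axis, 0 to 100) of each gene of the erythroid list (horizontal axis, ordered by mean percentile) in each of the 4 libraries, with crosses at the bottom for no start summit. Stop cassette replicate 1 lies above both wild-type libraries for 26 of 35 genes and replicate 2 for 11.

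The genes nearest to the members in pattern were sought among 90 genes of the blood lists by the mean absolute difference of the 4 start percentiles, with a missing summit set to 0. Gata1 was nearest to Gfi1b, a transcriptional repressor of red cells and platelets, at 10.3 percentiles. Klf1 was nearest to Rhag, a red cell membrane channel, at 12.5, Tal1 to Ank1, a membrane skeleton protein, at 13.8, and Hba-x to Icam4, a red cell adhesion protein, at 12.8. The other members were nearest to genes of other lists, Nfe2 to Lck, a T cell kinase, at 3.97, Hbb-bh1 to Cd14, a receptor for bacterial lipopolysaccharide, at 10.8 and Runx1 to Itgb3 at 2.24. With 4 lists, these are descriptions of these libraries.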

How the data were processed

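ATAC-seq libraries of limb cells from 2 stop cassette and 2 wild-type embryonic samples were used, as grouped by the genotype labels. The authors deposited 1 list of summits of 1 bp per library, so peaks were called per library, in mm9 per the labels. The value in the deposited lists behaves as −log10 of a q-value, since its lowest value corresponds to a q-value of 0.05. Bowtie2 2.2.6 and Picard are named in the submitters' processing notes. Per the peak names, mitochondrial and duplicate reads had been taken out and a mapping quality of 30 was set. The peak caller and any shift of the reads for the transposase are not given in the sources used here.

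Scores were ranked within each list, since a score depends on depth and background. Starts and gene bodies were taken from GENCODE M1 on the same build, with Spi1 matched through a RefSeq synonym. Summits were extended by 250 bp on each side and merged over the lists. Lists were also reduced to the equal length of 51701 summits, with ties broken at random. Named genes are all members, up to 4 genes per blood list with a start summit in all lists and the highest mean percentile, genes specific to a genotype and the nearest gene in pattern. For each member the region with the highest mean percentile was named, and others of its locus were chosen after their values were seen. Members and lists were chosen with earlier results of these data known. Eraf and Ahsp of the erythroid list and Trf of the liver list were not matched. Group means were compared with two-sided exact permutation tests over 6 assignments (Python 3.11.15, numpy 2.4.6). Counting of starts and regions was tested on simulated lists. Alternatives were list length, score threshold, distances, extension, annotation of starts, left-out libraries and the replicate block.

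Replicate numbers are shared by the genotypes in the labels, but no label says that they mark a shared litter or day, so they were not taken as pairs.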

Additional observations from a re-analysis of the deposited data

How the results depend on the processing

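No comparison could reach 0.05 with 2 libraries per genotype, so no p-value speaks to stability. Of 44 recomputed tested differences, 40 kept their direction. These 40 include those of the replicate block, which equal the main differences by construction. The differences in members with a start summit and in erythroid minus myeloid starts both became 0 at equal list length, and became 4 members and 66.7 points under the stricter score threshold. The difference in best percentile reversed to -5.34 without stop cassette replicate 1 and to -0.160 without wild-type replicate 2, and was 8.38 without stop cassette replicate 2. The number of regions in member loci, 136, became 206 with an extension of 100 bp, 246 with summits joined within 100 bp and 90 with the stricter score threshold (above 5.83), where those in all lists numbered 26. Regions of the stop cassette lists alone numbered 8 at equal length and, with 1 library left out, 32 to 46. Those of the wild-type lists alone numbered 3 with summits joined within 100 bp and 0 to 2 with 1 library left out. Leaving out a library of the regions, and the left-out counts for marker genes, were chosen after seeing the data, as was equal length without summits at other genes' starts, which gave 13.2 for the best percentile. The replicate block left the differences at 1, 0.0364, 16.7 and 1.52, as it must, since pairing does not alter a difference of means (exact sign-flip p of 0.5 for the first 3, the smallest that 2 pairs allow). The deviations of the replicates numbered 1 correlated at 0.198 over 12860 gene starts and at 0.0340 at equal length. Depth is unknown and limits which weak summits each list holds.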
